A study of Mus musculus with 5 samples.

Results

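The untreated culture of mouse epiblast stem cells was set against 4 treated cultures of the same line, and the genes whose untreated value lay outside the range of all 4 treated arrays were described. All 5 arrays of the 5 in the series were used. Every culture was of the line E3, had been kept on a feeder layer of inactivated CF1 fibroblasts in a serum-replacement (KSR) medium with 5 ng/ml FGF2, and received new medium for the last 3 h. The treated cultures received KSR medium with 1 uM PD0325901 (PD, an inhibitor of the kinase MEK), with 3 uM CHIR99021 (CH, an inhibitor of the kinase GSK3), with 1000 U/ml LIF, or with all 3 agents (PCL). The untreated culture received KSR medium without supplements, so it was the culture deprived of FGF2 with no agent in its place. Only the untreated label adds that E3 has a hybrid background. An array of cells kept in FGF2 was not analysed here, so the values describe the state after withdrawal and not the change that withdrawal made. The cells are bulk cultures with feeders, so fewer cells of a type and less RNA per cell cannot be told apart.

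Epiblast stem cells are pluripotent cells that resemble the epithelium of the embryo after implantation. FGF binds receptor tyrosine kinases that activate RAS, MEK and ERK. ERK switches on immediate early transcription factors within minutes and then feedback inhibitors, the dual-specificity phosphatases and Sprouty proteins, which damp the same pathway. Together with Activin or Nodal this signal is known to hold the cells in the primed state, while MEK inhibition, GSK3 inhibition and LIF are known for supporting the naive state of embryonic stem cells.

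Each culture was measured on 1 single-colour bead array, and the treated arrays are 4 different media rather than replicates, so no p-value is given. Values are normalized log2 intensities, which compare the same probe between arrays and not different genes with each other. A difference is treated minus untreated on the log2 scale, and its error is the bead-level standard error (SE), which leaves out culture, extraction and hybridisation. The arrays detected 10130 to 10981 probes. The untreated array was the brightest before normalization, with a 75th percentile of the signal of 137 to 153 on the treated arrays against 178 on the untreated one, and its part in the results was not tested. Over the 6821 genes detected on all arrays, the median size of the difference from the untreated array was 0.15 for PD, 0.13 for CH, 0.13 for LIF and 0.18 for PCL. Between pairs of treated arrays it was 0.13 to 0.18, so by this median the untreated array lay about as far from the treated ones as these lay from each other. Counts of genes with a 1.5-fold difference from the untreated array were 252 for PD, 117 for CH, 68 for LIF and 360 for PCL. Between pairs of treated arrays they were 112 to 257. By that count the closest pair of all was LIF and untreated, and the farthest PCL and untreated.

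Of 8353 genes detected on at least 1 array, the untreated value lay outside the treated range for 2853 genes, which is 34.2%. In 1515 of them all treated arrays were lower than the untreated array (18.1% of the genes), and in 1338 all were higher (16%). Any array is the highest or the lowest of the set for many genes, even if it differs little from the rest. Whether the untreated array was so more often than the other arrays was not tested. These shares therefore do not by themselves set the untreated culture apart. Most of the distances from the treated range were small. The median gap between the untreated array and the nearest treated array was -0.08 where the treated arrays were lower and 0.08 where they were higher, less than the median bead-level SE of such a gap (0.12 in both sets). The gap was at least 2 bead-level SE in 153 genes with lower treated values (1.83%) and in 129 with higher ones (1.54%), a limit chosen after the values were seen. The treated median differed from the untreated value by at least 2-fold in 10 genes, 7 lower (0.0838%) and 3 higher (0.0359%). All 7 lower genes lay outside the treated range, namely Egr1, Slc46a3, Lor, Dusp4, Grm6, Tcf15 and Pou3f1. Of the 3 higher genes Bst2 lay outside it, while the Wnt-regulated transcription factor Sp5 (1.94) and the homeobox gene Gbx2 (1.28) lay within it, because PD was lower than untreated for both.

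**Figure D1:**
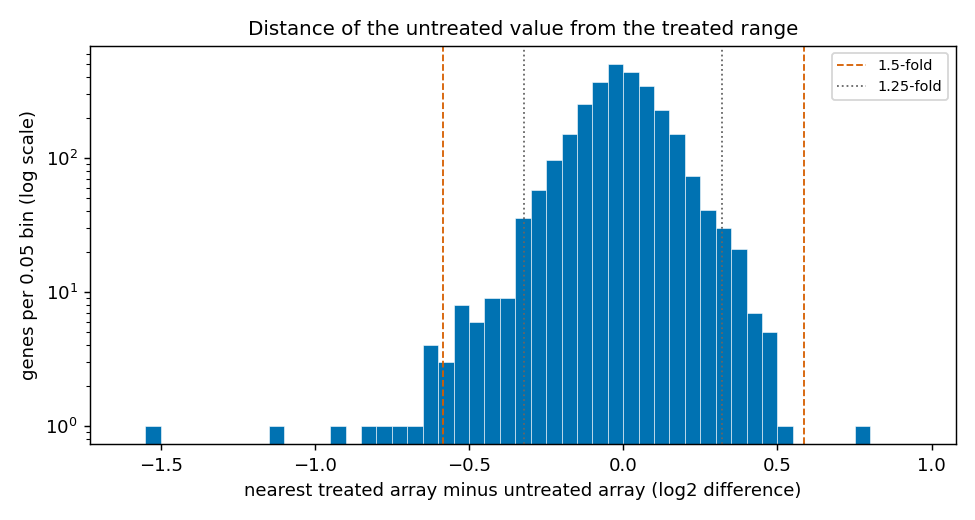
Number of genes (log scale, bins of 0.05) by the log2 difference between the nearest treated array and the untreated array, for the 2853 genes whose untreated value lay outside the treated range. Dashed lines mark 1.5-fold and dotted lines 1.25-fold, and beyond the dashed lines lie 12 genes with lower treated values and 1 with higher ones.

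A gap of at least 1.5-fold to the nearest treated array was reached by 13 genes (0.156%). The treated arrays were lower for 12 (0.144% of the genes) and higher for 1 (0.012%). These genes were chosen by their values on these arrays, so the values are given as a description. The widest gap was that of Slc46a3, a solute carrier of the lysosomal membrane. It was at log2 6.31 with PD, 7.54 with CH, 7.59 with LIF and 6.03 with PCL, against 9.10 on the untreated array. The nearest array, LIF, was 2.85-fold lower (-1.51 ± 0.09), and the treated median was 4.52-fold lower. That median lies midway between the CH and LIF arrays and the arrays with PD, so its difference of -2.18 became -1.56 without PD or without PCL and -2.79 without CH or without LIF. Next was Lor (loricrin), a structural protein of the cornified envelope in epidermis, at 5.25 with PD, 6.07 with CH, 6.15 with LIF and 5.14 with PCL, against 7.30 on the untreated array. Its gap was -1.15 ± 0.11. The glutamate receptor gene Grm6, known from bipolar cells of the retina, was at 6.06 with CH, 5.98 with LIF and 4.99 with PCL and was not detected with PD (4.69), against 6.98 on the untreated array. In these 3 genes CH and LIF lay between the untreated array above and both arrays with PD below.

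Egr1, the immediate early zinc-finger factor switched on by ERK, had the largest treated range of the 13. It was at 6.32 with PD, 9.22 with CH, 8.70 with LIF and 6.38 with PCL, against 10.01 on the untreated array. Even the nearest array, CH, was 1.73-fold lower (-0.79 ± 0.08), and the treated median was 5.51-fold lower. This difference of -2.46 became -1.30 without PD or without PCL and -3.62 without CH or without LIF. The same order, with both arrays that hold PD lowest, was seen in St6gal1, Itga3, Tor3a, Slc35d3 and Erich5. St6gal1, an enzyme that adds sialic acid to glycoproteins, was at 8.29 with PD, 8.86 with CH, 8.81 with LIF and 8.40 with PCL, against 9.46 on the untreated array (gap -0.60 ± 0.08). Itga3, the integrin alpha subunit of a laminin receptor, was at 7.87, 8.02, 8.20 and 7.65 on the PD, CH, LIF and PCL arrays, against 8.81 on the untreated array (gap -0.61 ± 0.08). Tor3a, of the torsin ATPase family, was at 5.64, 6.06, 6.06 and 4.95 on the PD, CH, LIF and PCL arrays, against 6.65 on the untreated array. Its other detected probe was lower on all treated arrays too, by a gap of -0.27. The sugar-nucleotide transporter family member Slc35d3 was at 5.35 with CH and 5.27 with LIF and was not detected with PD or PCL, against 6.04 on the untreated array. In all, 9 of the 12 genes had PD and PCL below both CH and LIF. That order was found in 12.9% of all genes and in 22.6% of the 1515 genes with lower treated values.

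In Zfp467, Car11, Rhbdl2 and Erich5 the range of the treated arrays was 0.24 to 0.25, against a median of 0.56 over the 12 genes. Over the 1515 genes with lower treated values the median range was 0.25, so theirs was of the usual size. Zfp467, a zinc-finger gene, was at 5.06 with PD, 4.98 with CH, 5.07 with LIF and 4.83 with PCL, against 5.88 on the untreated array (gap -0.80 ± 0.17). Car11, a carbonic anhydrase-related gene, was at 5.54, 5.42, 5.43 and 5.67 on the PD, CH, LIF and PCL arrays, against 6.39 on the untreated array (gap -0.73 ± 0.18). Rhbdl2, a rhomboid protease of the membrane, was at 5.34, 5.40, 5.44 and 5.59 on the PD, CH, LIF and PCL arrays, against 6.20 on the untreated array (gap -0.60 ± 0.15). Erich5 was at 5.74, 5.92, 5.93 and 5.69 on the PD, CH, LIF and PCL arrays, against 6.57 on the untreated array (gap -0.65 ± 0.12). Before normalization their untreated signal was 141, 174, 160 and 189 in the order Zfp467, Car11, Rhbdl2 and Erich5, where the median of that array was 91.1 and its 75th percentile 178.

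Bst2 was the gene with higher treated values past 1.5-fold. It encodes tetherin, a membrane protein induced by interferon that holds virus particles on the cell surface. Bst2 was at 6.38 with PD, 7.22 with CH, 6.52 with LIF and 7.12 with PCL, against 5.59 on the untreated array. The nearest array was PD (gap 0.79 ± 0.25), and the bead-level SE was the largest of the 13 genes. Before normalization the signal of Bst2 was 127 on the untreated array and 135 to 196 on the treated arrays. Of the 12 detected genes of the interferon response list, Bst2 was the only one with higher treated values, and Ifit2 and Psmb9 had lower ones with gaps of -0.04 each. That is 8.3% higher and 16.7% lower, against 16% and 18.1% of all genes. Another probe of Ifit2 was within the range.

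**Figure D2:**
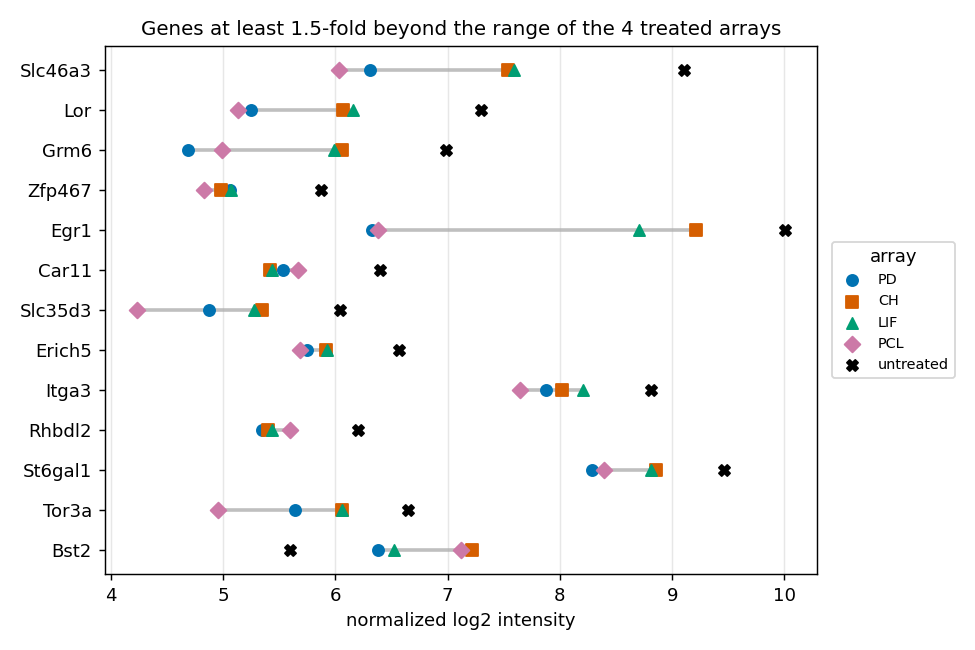
Normalized log2 intensity of the 13 genes at least 1.5-fold beyond the treated range, with a marker per array and a grey bar over the 4 treated arrays. The untreated array lies to the right of the bar for 12 genes and to its left for Bst2, and PD and PCL lie left of CH and LIF for 9 of the 12.

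These folds depend on how background is treated. With a larger offset on the log scale (50 in place of 16) 4 genes with lower and 0 with higher treated values reached 1.5-fold, and without background correction 3 and 0 did. Slc46a3, Lor and Egr1 passed in both settings, with Slc46a3 at a gap of -1.36 and -1.26. Bst2 had a gap of 0.51 with the larger offset and 0.39 without background correction. In the authors' deposited values, floored at 16 with empty cells raised to that floor, 21 and 12 genes passed, among them all 13. The 4 treated arrays also set the counts: without PD 22 and 4 genes passed, without CH 14 and 3, without LIF 20 and 6, and without PCL 12 and 1. The genes nearest the 1.5-fold limit were Lhx1 (-0.55) and Stmn1 (-0.56) inside it and Tor3a (-0.59) and St6gal1 (-0.60) beyond it.

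The promoters of the 2 genes with the widest gaps and of Bst2 are shown, since these are the genes that stood farthest from the treated cultures on either side. Each is the 250 bases before the annotated start on the gene's strand, from RefSeq (GRCm38.p6), at chr5:147894816-147895065 (minus strand) for Slc46a3, chr3:92083143-92083392 (minus strand) for Lor and chr8:71537473-71537722 (minus strand) for Bst2. Capitals mark matches to the motifs searched.
Slc46a3: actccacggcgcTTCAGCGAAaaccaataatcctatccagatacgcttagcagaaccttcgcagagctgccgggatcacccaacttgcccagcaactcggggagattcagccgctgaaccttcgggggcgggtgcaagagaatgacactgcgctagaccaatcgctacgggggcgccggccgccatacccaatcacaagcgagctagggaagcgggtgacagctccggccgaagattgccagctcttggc
Lor: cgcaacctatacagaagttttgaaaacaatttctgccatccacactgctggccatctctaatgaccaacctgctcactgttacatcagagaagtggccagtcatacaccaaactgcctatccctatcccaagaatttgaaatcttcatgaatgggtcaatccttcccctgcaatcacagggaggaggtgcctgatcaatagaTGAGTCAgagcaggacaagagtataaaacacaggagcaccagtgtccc
Bst2: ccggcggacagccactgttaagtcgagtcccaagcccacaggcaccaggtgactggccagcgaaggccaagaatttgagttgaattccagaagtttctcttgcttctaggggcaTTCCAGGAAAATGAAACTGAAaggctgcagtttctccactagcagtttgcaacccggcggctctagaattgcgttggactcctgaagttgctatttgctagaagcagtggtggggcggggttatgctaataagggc
On both strands the search covered EGR (GCGNGGGCG), ETS (CCGGAA), AP-1 (TGANTCA), CRE (TGACGTCA), SRE (CCATATTAG), STAT (TTCNNNGAA) and the interferon-stimulated response element (GAAANNGAA). Slc46a3 holds a STAT match, which 7.02% of 32851 promoter windows hold. Lor holds an AP-1 match (6.75% of the windows). Bst2 holds a STAT match that overlaps 2 overlapping matches to the interferon-stimulated response element (7.13% of the windows). For 10 of the 13 genes a promoter was in the table, 15 windows in all, and 0 of them held an EGR, CRE or SRE match, which 4.7%, 1.55% and 0.0974% of all windows hold. Egr1, Erich5 and Tor3a were not among the 10. Of the 15 windows 1 held an ETS match (12.0% of all windows), and 2 each held an AP-1, a STAT or an interferon-stimulated response element match. Beyond the promoters shown, Itga3 held the ETS match and an interferon-stimulated response element match, and St6gal1 held an AP-1 match. A match is a description of these letters and not a binding site.

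The FGF/ERK genes are the pathway that FGF2 withdrawal and PD both act on. Among 7 detected FGF ligands and receptors, the treated arrays were all lower than the untreated array for 4 (57.1%) and all higher for 1. The background over all genes is 18.1% lower and 16% higher, and with so few members the shares are given as counts of these lists only. Fgf5, the ligand that marks primed epiblast, was at 8.93 with PD, 9.53 with CH, 9.73 with LIF and 8.02 with PCL, against 9.80 on the untreated array. Its gap was only -0.07 ± 0.07, so LIF and the untreated array were alike. Fgf4 (gap -0.28 ± 0.23), Fgf15 (-0.09 ± 0.12) and the decoy receptor Fgfrl1 (-0.05 ± 0.20) were on the same side. Fgf4 was not detected with PCL, and no member of the list had a gap of 1.25-fold or more. Fgf8, a ligand of the primitive streak, was on the other side, at 9.87 with PD, 9.74 with CH, 9.06 with LIF and 10.23 with PCL, against 8.84 on the untreated array (gap 0.22). The receptor Fgfr1 was within the treated range, and Fgf2, Fgfr3 and Fgfr4 were not detected on any array.

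Of 17 detected immediate early genes, 5 (29.4%) had lower and 1 had higher values on all treated arrays, and 11 were within the range. After Egr1 the widest gap was that of Csrnp1, a serum-responsive nuclear protein gene, at 7.04 with PD, 6.71 with CH, 6.74 with LIF and 6.69 with PCL, against 7.54 on the untreated array (gap -0.50). PD was the highest of its treated arrays, whereas it was the lowest for Egr1. Zfp36, a protein that destabilises mRNAs, had a gap of -0.12, the serum response factor Srf one of -0.09, and Egr2 one of -0.04. Another probe of Srf was within the range. Ccn2, a matricellular protein gene, was higher on all treated arrays by a gap of 0.05. Fos, Jun, Junb, Ier3, Klf6 and Arc were within the treated range, as was Fosl1. Myc was within it too, but it was detected only with LIF. Egr3, Egr4, Fosb, Ier2, Ier5, Nr4a1, Klf10, Maff and Btg2 were not detected on any array. Fos was at 5.46 with PD, 5.30 with CH, 5.85 with LIF and 5.40 with PCL, against 5.80 on the untreated array, so LIF and the untreated array were level for this gene.

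The feedback inhibitors of ERK held 5 of 12 genes with lower (41.7%) and 1 with higher treated values. The MAP kinase phosphatase Dusp4 was at 6.82 with PD, 8.53 with CH, 8.14 with LIF and 6.81 with PCL, against 9.06 on the untreated array (gap -0.53). Dusp6, the phosphatase specific to ERK, was at 9.32 with PD, 10.47 with CH, 10.45 with LIF and 8.80 with PCL, against 10.80 on the untreated array (gap -0.33). Its 2 other detected probes gave gaps of -0.42 and -0.39. For Dusp4 another probe gave -0.42 and a further one was within the range. Spry4, a Sprouty inhibitor of receptor tyrosine kinase signalling, was at 5.73, 6.54, 6.50 and 5.71 on the PD, CH, LIF and PCL arrays, against 6.87 on the untreated array (gap -0.33). Il17rd (Sef), a membrane inhibitor of FGF signalling, was at 5.57, 5.75, 5.67 and 5.20 on the PD, CH, LIF and PCL arrays, against 6.14 on the untreated array (gap -0.39). In all 4 genes CH and LIF were closest to the untreated level and still below it. Dusp1 was lower by a gap of -0.16 and Dusp7 higher by 0.19. Spred1 was within the range, at 7.85 with PD, 8.61 with CH, 8.41 with LIF and 8.14 with PCL, against 8.58 on the untreated array.

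Among 12 other ERK targets, 5 (41.7%) had lower values on all treated arrays and 0 higher ones. Tcf15, a transcription factor of epiblast cells that are leaving the naive state, was at 5.61 with CH, 6.48 with LIF and 5.41 with PCL and was not detected with PD, against 6.99 on the untreated array (gap -0.51). Lbh (gap -0.15), Phlda1 (-0.07), the ETS factor Etv1 (-0.03) and Mcl1 (-0.01) followed, with another probe of Lbh within the range. Etv4, Etv5, Epha2, Rgs16, Ccnd1 and the activin-binding protein gene Fst were within the range. Etv5 was at 7.29 with PD, 8.25 with CH, 8.36 with LIF and 7.63 with PCL, against 8.11 on the untreated array, so CH and LIF were above the untreated level for this gene. The median difference of the treated median from the untreated value was -0.39 for these other targets, -0.25 for the immediate early genes and -0.14 for the feedback inhibitors, against -0.02 over all genes. For the other targets it was -0.20 without PD, -0.24 without PCL, -0.57 without LIF and -0.74 without CH. For the feedback inhibitors it was -0.42 over the genes detected on all arrays, where the other targets were at -0.35, so these lists have no fixed order.

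**Figure D3:**
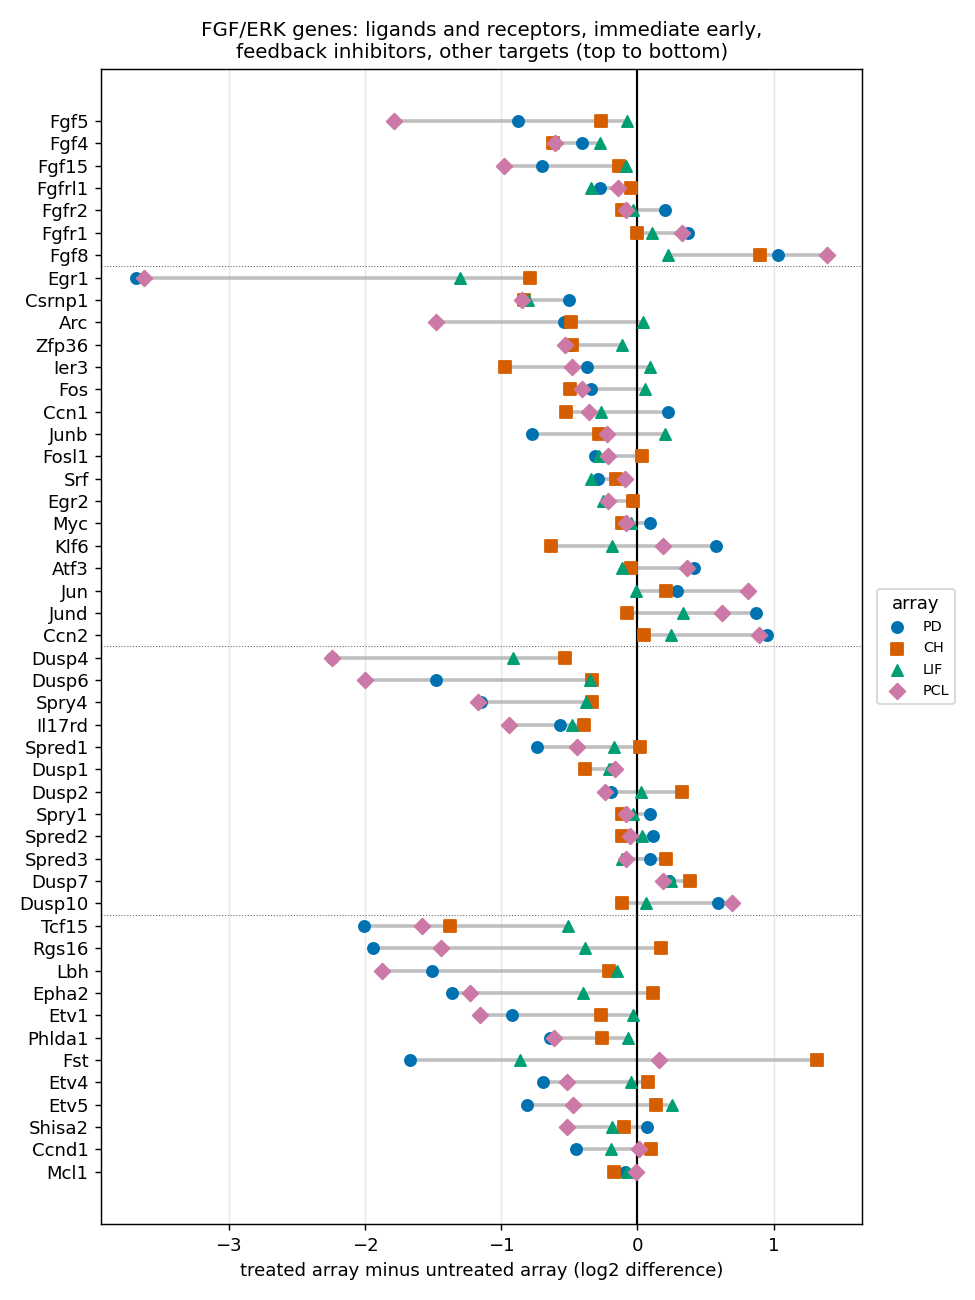
Difference of each treated array from the untreated array (log2) for the detected FGF/ERK genes, in 4 blocks from the ligands and receptors at the top to other targets at the bottom, with undetected values raised to the lowest detected level of the array. Genes whose 4 markers all lie left of 0 include Egr1, Csrnp1, Dusp4, Dusp6, Spry4, Il17rd and Tcf15, while Fgf8, Ccn2 and Dusp7 lie right of it.

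The untreated culture carried the transcripts of pluripotent epiblast. Of 13 primed epiblast stem cell markers with a probe, 12 were detected there, namely Pou5f1, Sox2, Nanog, Tdgf1, Utf1, Fgf5, Otx2, Pou3f1, Dnmt3b, Nodal, Cldn6 and Cdh1, and Cdh2 was not. The naive markers Zfp42, Klf4, Klf2, Esrrb, Tbx3, Dppa3 and Fbxo15 were detected as well, 7 of 9 with a probe, while Nr0b1 and Prdm14 were not. Core pluripotency genes lay on both sides of the treated range, 3 of 10 lower and 3 higher (30.0% each, against 18.1% and 16% of all genes). Nanog was at 10.10 with PD, 9.98 with CH, 9.50 with LIF and 10.08 with PCL, against 9.20 on the untreated array (gap 0.29), so the untreated culture had the lowest level. Pou5f1 was within the treated range, at 12.17 with PD, 12.39 with CH, 12.35 with LIF and 12.06 with PCL, against 12.36 on the untreated array, although another probe was lower on all treated arrays by a gap of -0.09. Sox2 was within it too, at 7.10, 7.28, 8.05 and 7.39 on the PD, CH, LIF and PCL arrays, against 7.95 on the untreated array. Sall4 was higher on all treated arrays (gap 0.10), and Dppa4 (-0.07), Zfp281 (-0.18) and Tdgf1 (-0.01) were lower. Lin28a, an RNA-binding protein gene, was at 9.10 to 9.12 on the treated arrays, against 8.78 on the untreated array, but its other detected probe lay on the opposite side (gap -0.27).

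Of 14 detected primed epiblast genes, 5 were lower and 5 higher on all treated arrays (35.7% each, against 18.1% and 16% of all genes). None had a gap of 1.25-fold or more. Pou3f1, a POU factor of primed epiblast and neural fate, was at 8.33 with PD, 7.96 with CH, 9.08 with LIF and 7.56 with PCL, against 9.37 on the untreated array (gap -0.29). Otx2 had a gap of -0.16 and the kinase gene Pim2 one of -0.24, and Fgf5 and Fgf15 were also lower. The other 2 detected probes of Pim2 were within the range. The Nodal antagonist Lefty1 was at 12.21 with PD, 10.90 with CH, 11.38 with LIF and 12.25 with PCL, against 10.83 on the untreated array (gap 0.07). Nodal (0.11), the DNA methyltransferase Dnmt3b (0.10), Zic2 (0.07) and Fgf8 were higher on all treated arrays as well, but another probe of Dnmt3b lay on the opposite side (-0.01). Of 11 naive genes, Klf2 was at 8.65 with PD, 7.45 with CH, 7.44 with LIF and 9.35 with PCL, against 7.19 on the untreated array (gap 0.25). Pecam1 was higher by a gap of 0.05, Fgf4 was lower, and the other 8, among them Esrrb, Klf4, Klf5 and Zfp42, were within the range.

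**Figure D4:**
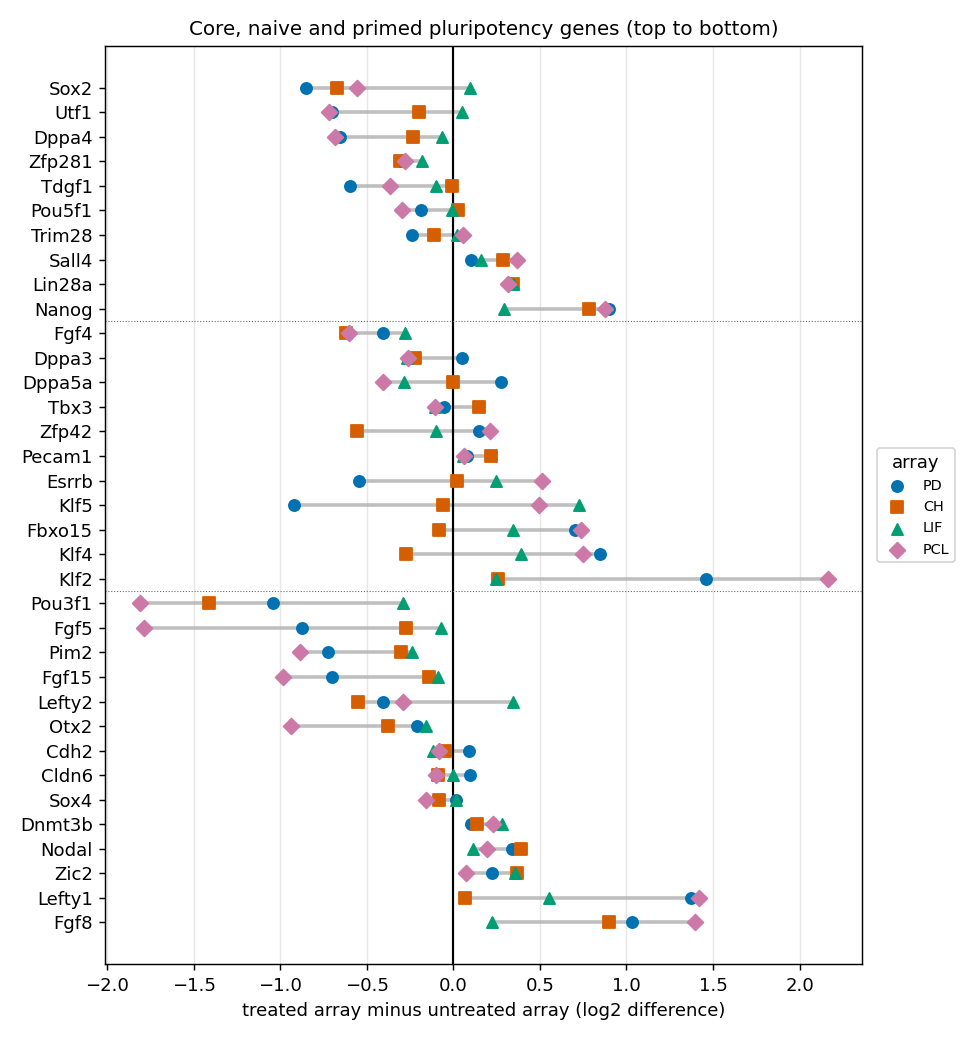
Difference of each treated array from the untreated array (log2) for the detected core, naive and primed pluripotency genes, in 3 blocks from top to bottom. All 4 markers lie right of 0 for Nanog, Klf2, Fgf8, Lefty1 and Nodal and left of 0 for Pou3f1, Otx2, Fgf5 and Pim2.

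Lineage markers were detected in part. Of 7 neural markers Nes and Sox21 were detected on the untreated array, and Sox1, Pax6, Zic1, Neurog2 and Hes5 were not. Sox17, Foxa2, Cer1, Gata6 and Hhex of the definitive endoderm were detected there, 5 of 6. The summed level of these endoderm markers was 293 to 342 on the treated arrays against 368 on the untreated array, and its part in the other results was not tested. Among 15 detected mesendoderm genes, 3 had lower values on all treated arrays and 0 higher ones. Lhx1, a LIM homeobox factor of the organizer, was at 5.72 with PD, 5.55 with CH, 5.65 with LIF and 5.25 with PCL, against 6.27 on the untreated array (gap -0.55). Gata6 (-0.12) and Hhex (-0.01) were the others, and Eomes, Mixl1, Gsc and Foxa2 were within the range. Of 9 detected genes of the BMP/Id list, 2 were lower and 2 higher on all treated arrays (22.2% each, beside the same all-gene shares). Chrd, the BMP antagonist of the organizer, was at 5.97 with PD, 6.54 with CH, 6.52 with LIF and 6.21 with PCL, against 7.09 on the untreated array (gap -0.55). Id3 was lower by a gap of -0.12, while Id1 and Id2 were within the range. Smad6 was higher on all treated arrays, but another probe lay on the opposite side (-0.12).

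Targets of the agents themselves are given as counts beside the 34.2% of all genes that lay outside the treated range. All 14 detected Wnt/beta-catenin targets were within it, 0 lower and 0 higher, and so were 12 of 15 LIF/STAT3 targets. The range rule needs all 4 treated arrays on 1 side, so it leaves out a target moved only by its own agent. The summed log2 level of the Wnt/beta-catenin targets was 97.1 with CH, 95.3 with PCL, 86.9 with PD and 89.3 with LIF, against 90.0 untreated. That of the LIF/STAT3 targets was 111.2 with LIF, 112.6 with PCL, 100.4 with PD and 104.2 with CH, against 104.5 untreated. Stat3 was higher on all treated arrays by a gap of 0.05, with another probe at 0.07 and a further one within the range. Feeder transcripts were present, with 13 of 18 fibroblast markers detected on the untreated array, among them Col1a1, Dcn, Thy1 and Acta2. The markers Col1a2, Col3a1, Postn, Pdgfrb and S100a4 were not detected on any array. The summed level of the 13 detected markers was 6858 to 7726 on the treated arrays and 7128 on the untreated array, within the treated range. Individually 4 of 13 were lower on all treated arrays (30.8%, against 18.1% of all genes), with gaps of -0.01 to -0.14 (Lum, Dcn, Pdgfra and Twist1). Thy1 (0.02) and Vim (0.08) were higher.

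Over all genes 18.1% were lower and 16% higher on all treated arrays, and the lists that follow are given as counts beside these shares. The stress response list held 2 of 19 genes with lower (10.5%) and 6 with higher treated values (31.6%). The higher ones were Hmox1 (0.23), Sesn2 (0.19), Hspb1 (0.11), Asns (0.09), Herpud1 (0.07) and Gadd45b (0.01). The other detected probes of Asns, Sesn2 and Herpud1 were within the range. Of 14 cholesterol synthesis genes 1 was lower and 5 were higher, the widest gap being that of lanosterol synthase, Lss, at 9.39 with PD, 9.36 with CH, 9.45 with LIF and 9.32 with PCL, against 9.01 on the untreated array (gap 0.31). In the hypoxia and glycolysis list 5 of 17 were lower (29.4%) and 2 higher (11.8%). Ndrg1, a hypoxia-inducible gene, was at 7.75 with PD, 7.73 with CH, 8.32 with LIF and 7.38 with PCL, against 8.69 on the untreated array (gap -0.37), with another probe at -0.33. Vegfa and Egln3, also induced by hypoxia, had gaps of -0.13 each, and the hexokinase gene Hk2 one of -0.08, and another probe of Vegfa was within the range. Of 15 Hippo/YAP and cytoskeletal SRF targets 1 was lower and 3 were higher, the widest gap being that of the LIM protein gene Ajuba (0.37), whose other probe was within the range. Of 23 cell cycle genes 19 were within the range, with 1 lower (4.3%) and 3 higher (13.0%). Of 62 respiratory chain genes 7 were lower (11.3%) and 11 higher (17.7%), with gaps from -0.22 (Ndufb5) to 0.13 (Atp5c1). Small ribosomal subunit genes numbered 7 lower (29.2%) and 5 higher (20.8%) of 24, and large subunit genes 7 (22.6%) and 5 (16.1%) of 31. Among them Rpl36a had the widest gap, at 11.77 with PD, 11.56 with CH, 11.38 with LIF and 11.48 with PCL, against 10.95 on the untreated array (gap 0.42). Before normalization the signal of Rpl36a was 2709 on the untreated array and 2614 to 3149 on the treated arrays. Its paralogs were not followed, and a probe may match near-identical copies.

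**Figure D5:**
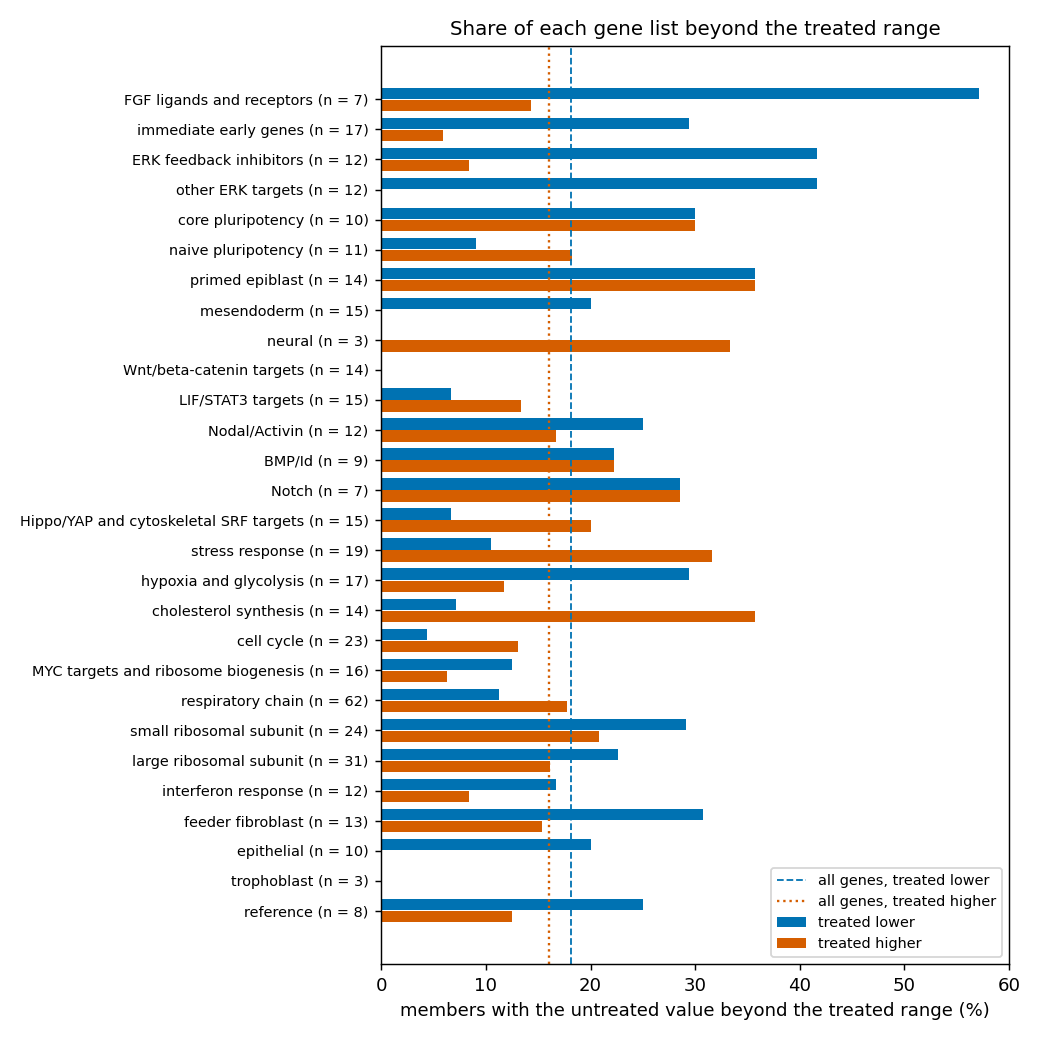
Percent of the detected members of each gene list with all treated arrays lower (blue) or higher (orange) than the untreated array, beside the shares over all genes (dashed line at 18.1%, dotted line at 16%). The number of detected members is given after each name, and the FGF ligand and receptor list, with 7 members, has the longest blue bar at 57.1%. No member of that list had a gap of 1.25-fold or more.

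A lower limit of 1.25-fold, chosen after the values were seen, took in 66 genes with lower treated values (0.79%) and 55 with higher ones (0.658%). The genes named from here to the end of the paragraph were likewise chosen after their values were seen. Other probes of the same gene, which measure the same RNA and are not replicates, gave a check on these sets. For the lower genes 14 of 22 other detected probes were also lower on all treated arrays (63.6%) and 0 were higher on all of them. For the higher genes 9 of 31 were also higher (29.0%) and 3 were lower on all of them. Over all genes outside the treated range the same-side shares were 26.8% for the lower and 30.6% for the higher genes. The 1.25-fold limit thus came with a larger share for the lower genes only. Of all 2991 other detected probes, 449 were lower and 594 higher on all treated arrays. The phosphatase gene Ptpn12 was lower on all treated arrays by each of its 5 detected probes, with 6.59 with PD, 6.78 with CH, 6.73 with LIF and 6.37 with PCL against 7.19 on the untreated array for the brightest. The zinc-finger gene Zfp532 had gaps of -0.55 and -0.56 on its 2 probes, and the semaphorin gene Sema3f had -0.41 and -0.28. Amino acid and metal transporters were also among the lower genes, with gaps of -0.46 for Slc7a7, -0.40 for Slc38a2 and -0.42 for the iron exporter Slc40a1. The other probe of Slc7a7 and that of Slc38a2 were within the range. Among the higher genes were the mitochondrial enzymes Sars2 (gap 0.54), Mcat (0.50) and Dld (0.40), the receptor-type phosphatase Ptpre (0.47), and the Wnt receptor Fzd10 (0.35, with another probe at 0.22 and a further one within the range). Before normalization the untreated signals of Sars2, Mcat, Dld and Fzd10 were 142, 144, 105 and 182. They lay above the lowest treated signals of 137, 140, 100 and 180. For Ptpre the untreated signal was 1243 and the lowest treated one 1255. Another probe of Ptpre lay on the opposite side (-0.08), while the adaptor gene Gipc1 had 0.48, 0.47 and 0.02 on 3 probes and -0.01 on a further one.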

How the data were processed

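RNA of 5 cultures was measured on 5 single-colour bead arrays, 1 per medium. The authors exported the deposited tables with BeadStudio, per the submitters' processing notes. Per the file headers they give each of 25697 probes an intensity, a standard error over beads and a detection p-value. The authors' deposited value table holds whole-number processed intensities (whether and how they were normalized is not stated). It served as an alternative on the log2 scale, floored at 16, and its 12415 to 12429 empty cells per array were raised to that floor.

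Signals were corrected with normexp (limma 3.58.1, R 4.3.3), with negative controls inferred from detection p-values and an offset of 16, then quantile-normalized and put on the log2 scale. The offset compresses differences of dim genes. Probes were named from the platform annotation (23978 with 1 symbol, 0 with several, 1719 unnamed), and 23962 matched a RefSeq gene. Each gene was represented by its brightest probe. A probe was detected at a detection p under 0.01. An undetected value was raised to the lowest detected level of its array, and the array or arrays on the high side had to be detected. A gene was beyond the treated range if its untreated value lay outside all 4 treated values. All genes past 1.5-fold were named (at most 20 a side), as were members of 28 gene lists. The members and lists were chosen with earlier results of these data known. The rule was tried on simulated data with a log2 shift of 1.5 and bead-level noise only. That shift was wider than the gap of every named gene but Slc46a3, so smaller gaps were not tested. Differences of culture, extraction and hybridisation were not simulated. Alternatives were another scaling, no background correction, another offset, the authors' values, other detection rules, all probes and leaving out each treated array. Precision is limited by the number of arrays.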

Additional observations from a re-analysis of the deposited data

How the results depend on the processing

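No paired analysis was possible because each medium has 1 array. The counts of genes outside the treated range (1515 lower and 1338 higher on all treated arrays) stayed within 1.5 times under every alternative except the one without a detection filter, which gave 3154 and 3112 because 16593 genes were then counted. The counts past 1.5-fold (12 lower and 1 higher) were 3 and 0 without background correction, 4 and 0 with an offset of 50, and 21 and 12 in the authors' values. The higher count was 2 with scaling to a common 75th percentile, 2 without a detection filter, 2 with a detection p under 0.05 and 3 over all named probes. With each treated array left out in turn the range is set by 3 arrays, and the lower count was 12 to 22 and the higher count 1 to 6 (22 and 4 without PD, 14 and 3 without CH, 20 and 6 without LIF, 12 and 1 without PCL). The counts of genes outside the range were 1853 to 2092 lower and 1617 to 1744 higher in those settings. Leaving out an array cannot widen the range, so rises in these counts follow from the setting. Under each of the 4 scaling and background alternatives all 13 genes lay on the same side of the treated range, and scaling to a common 75th percentile left 11 of them past 1.5-fold. The larger offset and the lack of background correction keep the order of probes within each array, so both gave the same 1515 and 1338 genes. Those settings could not move a gene to the other side. Over all 11 alternatives, including the detection rules and the arrays left out, 286 of the lists' median differences moved by no more than the median bead-level SE of 0.13 and 21 by more. Of the differences of the 13 genes 76 moved by no more than their own bead-level SE and 65 by more, with 0 changes of sign for a gene. Leaving out a treated array could not change a sign, because all treated arrays lay on 1 side for these genes. The neural list, with 3 genes, and the other ERK targets moved most often. The cause was not tested. Signal near background limits the precision of the folds.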
